A study of Arabidopsis thaliana with 2 samples.

Results

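Leucine-rich repeat receptor-like kinases were followed in RNA-seq of Arabidopsis thaliana whole seedlings. An ARF18 overexpression line, in which a 35S promoter drives ARF18 (line 35S-ARF18-OE-2, below ARF18-OE), was set against wild type (Col). Both were of the Col ecotype, and each was represented by 1 library, so the overexpressor is 1 transgenic line seen once. The labels give the age as 7 days, and elsewhere describe seedlings kept 4 days in the dark on 1/2 MS medium and then 7 days in white light. The age at harvest was therefore not settled here. A locus was taken as a member when the protein-database description of its transcript in the deposited table named an LRR receptor-like kinase, a leucine-rich repeat receptor or a leucine-rich repeat protein kinase. BRI1, BAK1, SUB and GSO1 were left out by that rule. It gave 115 loci of the 21825 in the table. In the reference annotation 112 of the 115 were protein coding, 2 were long non-coding RNAs and 1 was a transcribed pseudogene. Domain notes named a kinase domain in 112 members, and both a kinase domain and leucine-rich repeats in 102.

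Receptors of this family span the plasma membrane once. The leucine-rich repeats outside the cell bind peptides, steroid hormones or fragments of microbes, usually together with a shorter co-receptor of the same family, and the kinase domain inside passes the signal on by phosphorylation. In seedlings they are known for controlling meristems, vascular cambium, stomata, cell walls and defence. Some members lack residues that an active kinase needs and are thought to act without phosphorylating a substrate. ARF18 belongs to the auxin response factors, transcription factors that bind auxin response elements in promoters.

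The coding sequence of the kinase catalytic loop differs between members, and whether a given member is an active kinase was not tested. Each line below holds 30 coding bases, 5′ to 3′, from the histidine codon that opens the loop. They are shown for the 5 vascular receptors, which include 3 of the 4 most abundant members, and for FLS2 as a member of another class. The capitals mark the 2 codons that spell arginine and aspartate in a typical loop, and the sequences were read from the RefSeq TAIR10.1 genome.
PXY: cacCGTGACctgaaacctagcaatatcctc
PXL2: cacAGAGACatcaaatccaacaatatcttg
PXC1: cacGGCAATatcaaatcctctaatgttcta
RUL1: cacGGAGACatcaaatcatcaaacatactt
PXC3: cacCTCGACgtttcctctagcaacgtcttg
FLS2: catTGTGATctgaagccagctaatatactc
PXY and PXL2 carry arginine and aspartate codons at these positions. RUL1, PXC3 and FLS2 carry another residue before the aspartate, and PXC1 has no aspartate codon there. Of the 115 members, 65 had an arginine-aspartate loop, 10 another residue before the aspartate, 16 no aspartate, and in 24 the search found no match, which says only that the searched pattern is not in their coding sequence.

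Promoter sequence is shown for the 3 most abundant vascular receptors, which were all lower in the ARF18-OE library. Each line holds the 250 bases before the annotated gene start, 5′ to 3′ in the direction of transcription, from the RefSeq TAIR10.1 genome. Capitals mark TGTCTC or its reverse complement GAGACA, the classical core of an auxin response element.
PXC1, plus strand, chr2:15335034-15335283: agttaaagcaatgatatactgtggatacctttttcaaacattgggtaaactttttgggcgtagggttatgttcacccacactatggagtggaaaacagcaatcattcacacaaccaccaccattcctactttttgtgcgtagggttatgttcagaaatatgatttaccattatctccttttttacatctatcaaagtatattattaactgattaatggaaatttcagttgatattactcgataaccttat
PXY, minus strand, chr5:24728245-24728494: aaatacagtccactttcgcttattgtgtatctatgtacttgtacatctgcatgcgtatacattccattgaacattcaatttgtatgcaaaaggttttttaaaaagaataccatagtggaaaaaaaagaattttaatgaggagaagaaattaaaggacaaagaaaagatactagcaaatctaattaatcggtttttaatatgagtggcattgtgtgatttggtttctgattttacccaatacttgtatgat
RUL1, plus strand, chr5:1527518-1527767: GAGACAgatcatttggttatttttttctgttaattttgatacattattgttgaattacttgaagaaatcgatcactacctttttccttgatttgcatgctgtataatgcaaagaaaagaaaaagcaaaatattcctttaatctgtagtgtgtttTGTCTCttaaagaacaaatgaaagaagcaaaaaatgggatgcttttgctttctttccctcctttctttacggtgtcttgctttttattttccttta
RUL1 had 2 matches in this window, while PXC1 and PXY had 0. Of the other vascular receptors, PXC3 had 1 match and PXL2 had 0. Among expressed members, 10 of 71 held the motif (14.1%), against 1602 of 15068 expressed nuclear loci with a promoter sequence (10.6%). The median log2 ratio was -0.27 for the expressed members with the motif and -0.38 for those without it. The variant TGTCGG, or its reverse complement CCGACA, was in the window of 3 of 71 expressed members (4.23%) and of 4.85% of expressed nuclear loci. A match is a description of letters in this window and not a bound site.

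The ARF18-OE library held 6824188 counted reads and the Col library 7059226. ARF18 itself (AT3G61830) had 472 counts in ARF18-OE and 97 in Col, and an RPKM (a level per transcript length and library total) of 29.5 in ARF18-OE and 5.85 in Col. The count ratio, scaled to the library totals, was 5.03, with a 95% exact conditional binomial interval of 4.04 to 6.33. All such intervals cover counting error only. No test between the genotypes could be made, since each had 1 library. The photosynthesis genes RBCS1A and CAB2 had 4436 and 1831 counts in ARF18-OE, against 3818 and 2306 in Col. The aquaporin gene PIP2B had 2831 counts in ARF18-OE and 2389 in Col, and the root-expressed aquaporin gene TIP2;3 had 130 in ARF18-OE and 49 in Col, a ratio of 2.74 (1.96 to 3.89). Shoot and root transcripts were thus present in both libraries, and the part of any difference in root share in the values below was not tested.

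Members were mostly low to moderate in level. Loci with a mean RPKM of 1 or more over both libraries are called expressed below. This held for 71 of 115 members (61.7%), against 69.6% of nuclear loci in the table. The expressed members had a median RPKM of 6.62 in ARF18-OE and 10.8 in Col. Of the 44 members under this level, 32 had fewer than 10 counts in both libraries, 3 were at 0 in ARF18-OE and 5 were at 0 in Col. A mean RPKM of 10 or more was reached by 32 members. All members together took 16085 counts in ARF18-OE, or 0.236% of that library, and 23624 counts in Col, or 0.335%. The 10 most abundant members held 46.0% of the member counts in ARF18-OE and 50.9% in Col.

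PXC1 (AT2G36570), which is needed for secondary wall formation in xylem fibres, had the highest mean RPKM, at 76.9 in ARF18-OE and 143 in Col. Next came AT2G01820, at 58.6 in ARF18-OE and 85.2 in Col, and RUL1, a cambium regulator, at 54.9 in ARF18-OE and 86.9 in Col. PXY, the receptor of the peptide TDIF in the vascular cambium, followed at 36.1 in ARF18-OE and 62.1 in Col. Of the 4 most abundant members, 3 were thus vascular receptors. AT3G56370 had 35.6 RPKM in ARF18-OE and 49.8 in Col, and AT4G36180 had 34.5 in ARF18-OE and 48.7 in Col. BIR1, which restrains cell death and defence, had 27.6 in ARF18-OE and 39.7 in Col. MEE62, named for maternal effect embryo arrest, had 26.0 in ARF18-OE and 39.2 in Col. AT5G49760 had 19.9 in ARF18-OE and 30.2 in Col, and IMK2, an inflorescence meristem kinase, had 17.4 in ARF18-OE and 30.9 in Col. Each of these 10 was lower in the ARF18-OE library, and each had a count interval below 1.

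**Figure D1:**
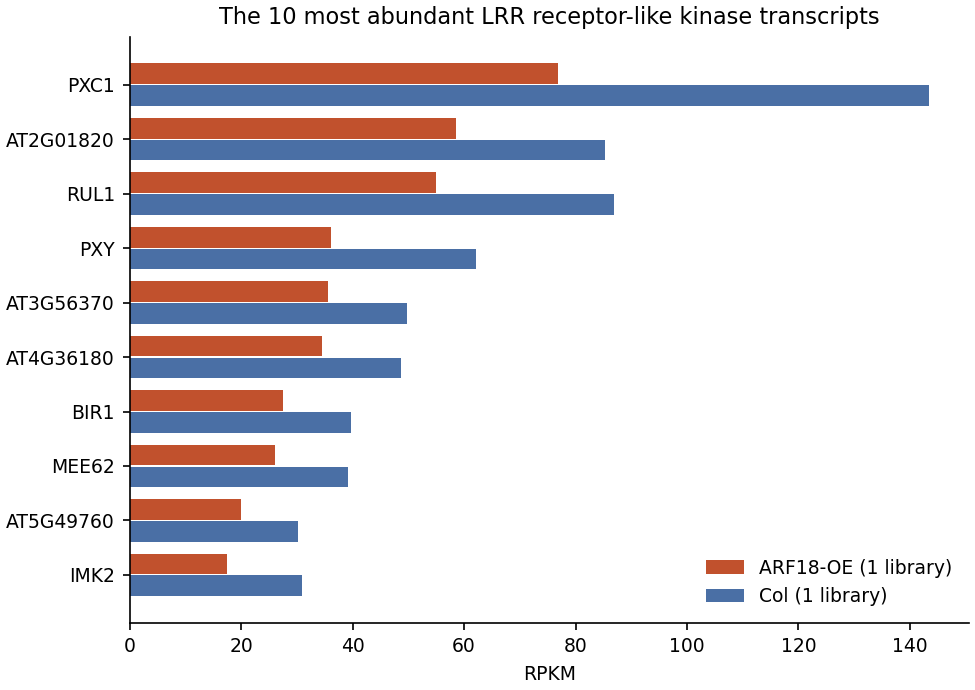
RPKM of the 10 members with the highest mean RPKM, from the highest down, in the ARF18-OE library (upper bar of each pair) and the Col library (lower bar). Each bar is 1 library and carries no error bar. PXC1 stands at 76.9 in ARF18-OE and 143 in Col, and the ARF18-OE bar is the shorter one in all 10 pairs.

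The comparison asks how the transcripts of these receptors differ between a line that overexpresses ARF18 and its wild type. Most expressed members were moderately lower in ARF18-OE. The measure was log2 of (RPKM + 1) in ARF18-OE over (RPKM + 1) in Col, a scale that understates the difference of low genes. Its median over the 71 expressed members was -0.37, with a range of -0.89 to 0.36, beside a median of 0.03 over 15083 expressed nuclear loci. The ratio was below 0 in 61 of 71 members (85.9%), against 46.2% of expressed nuclear loci. On this scale members at least 2-fold lower numbered 0, against 0.663% of expressed nuclear loci, and members at least 2-fold higher numbered 0, against 1.25%. By count ratio, with no pseudocount, FEI2 and AT1G12460 were past 2-fold, at 0.460 and 0.462, both on few reads. The share of expressed nuclear loci past 2-fold by count ratio was not counted. With a pseudocount of 0.1 RPKM these 2 members were at least 2-fold lower, beside 249 of the 15083 expressed nuclear loci. The count interval lay below 1 in 46 of 71 members (64.8%), against 15.6% of expressed nuclear loci, and above 1 in 0 members, against 18.7% of all and 1.48% of those in the members' length range described below. In whole seedlings, fewer cells of a type and less RNA per cell cannot be told apart.

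Transcript length moved with the ratio across the whole table. Expressed members had a median transcript length of 2787 bases, against 1415 for all expressed nuclear loci. Among the decile of loci with the shortest transcripts the median log2 ratio was 0.34, and among the decile with the longest, of 2610 bases or more, it was -0.31. The longest decile held 42 of the expressed members, with a median of -0.43. The next decile, of 2094 to 2610 bases, had a median of -0.17 and held 23 expressed members with a median of -0.30. Spearman's rho of the log2 ratio with transcript length was -0.52 over 15083 loci and -0.27 over the 71 members, all values of the same 2 libraries. Among the members rho was -0.38 with the mean RPKM and -0.32 with GC content.

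**Figure D2:**
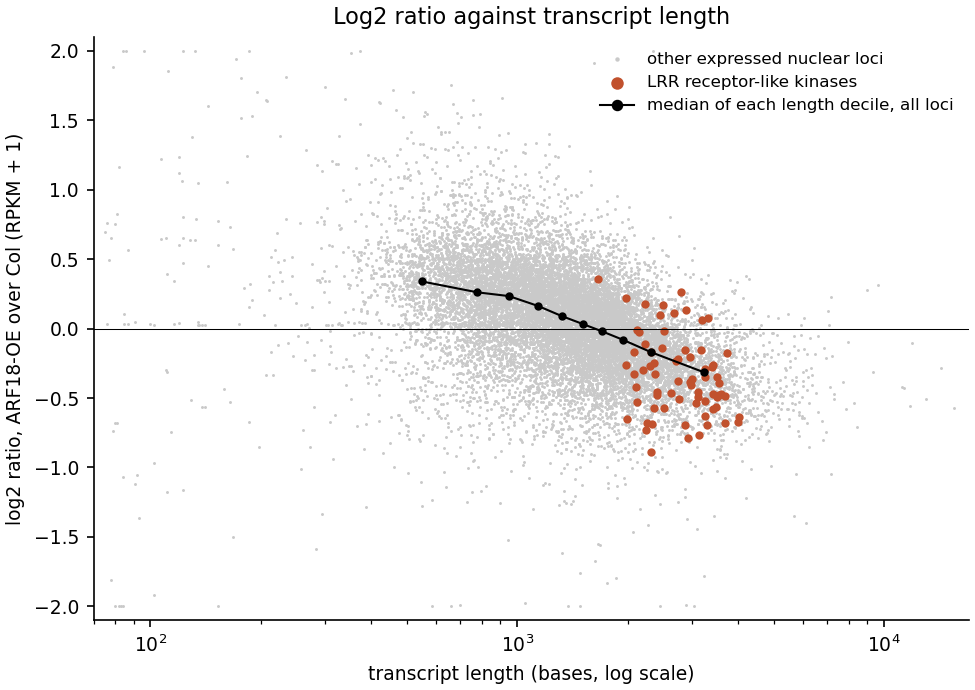
Log2 ratio of RPKM + 1, ARF18-OE over Col, against transcript length in bases on a log scale, for the 71 expressed members (orange) and the other expressed nuclear loci (grey, drawn at the axis edge where they lie past it). Black points are medians of length deciles, placed at the median length of each decile, and fall from 0.34 to -0.31 as length increases, while most members lie below the line at their own length.

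Set beside loci of their own length, the members were lower by a smaller margin. The 2426 expressed nuclear loci between the 10th and 90th percentile of the members' lengths, 2115 to 3546 bases, had a median log2 ratio of -0.23. Of these loci 82.7% had a ratio below 0, and 40.5% had a count interval below 1, against 64.8% of the members. Their counts over both libraries were similar, with a median of 340 in the members and 296.5 in the length range. At least 2-fold lower were 0.907% of the loci in the length range, and at least 2-fold higher 0.0412%. After subtracting the medians of bins of length and then of GC content, the members' median was -0.14, with a range of -0.73 to 0.51. The adjusted ratio was below 0 in 47 of 71 members, against 49.9% of expressed nuclear loci and 51.7% in the length range. The adjusted count interval was below 1 in 22 members (31.0%), against 12.5% of expressed nuclear loci and 16.5% in the length range. It was above 1 in 1 member, AT5G14210, against 11.0% and 7.38%.

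**Figure D3:**
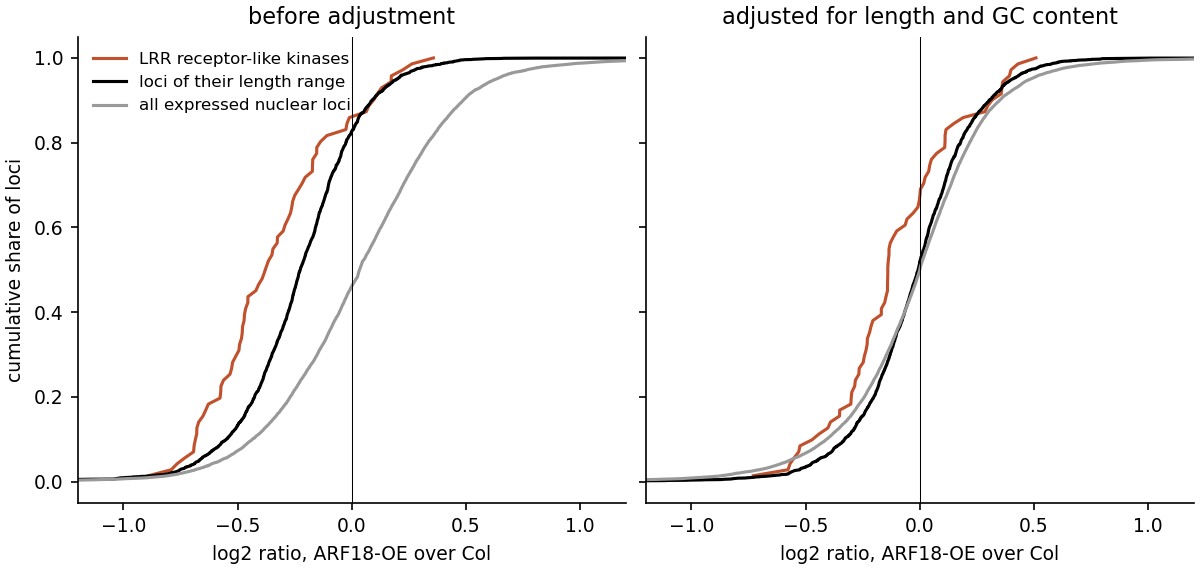
Cumulative share of loci (vertical axis) at or below each log2 ratio of RPKM + 1, ARF18-OE over Col (horizontal axis), before (left) and after adjustment for transcript length and GC content (right), for the 71 expressed members, the 2426 loci of their length range and all expressed nuclear loci. On the left the members' median is -0.37, that of their length range -0.23 and that of all loci 0.03, and on the right the members' median is -0.14.

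The rule did not take in every gene of the family. By domain notes, 88 further loci of the table carried both a kinase domain and leucine-rich repeats, and 67 of them were expressed. Their median log2 ratio was -0.32, or -0.09 adjusted for length and GC content. The ratio was below 0 in 62 of 67 (92.5%), against 82.7% of the members' length range and 46.2% of expressed nuclear loci. The count interval was below 1 in 41 (61.2%), against 40.5% and 15.6%, and above 1 in 1 (1.49%), against 1.48% and 18.7%. Adjusted, it was below 1 in 19 (28.4%), against 16.5% and 12.5%, and above 1 in 3 (4.48%), against 7.38% and 11.0%. The members chosen by the rule and these relatives thus gave near values, and their difference was not tested. BRI1, the brassinosteroid receptor left out by the rule, had 844 counts in ARF18-OE and 1548 in Col, or -0.38 on the adjusted log2 scale. The others left out were less far from 1 or had few reads. GSO1 had a ratio of 0.642 (0.506 to 0.813), or -0.12 adjusted. SUB had a ratio of 0.884 (0.757 to 1.03), or 0.06 adjusted. BAK1 was under the level filter, with 6 counts in ARF18-OE and 23 in Col.

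The authors' deposited table tests the reads of these 2 libraries and not the genotypes. In it 32 of the 71 expressed members were lower at an FDR of 0.05 or less, and 0 of the 115 members were higher. By the same rule in the authors' deposited table, 11.3% of expressed nuclear loci were lower and 12.8% higher. Within the members' length range those shares in the authors' deposited table were 29.7% and 0.66%. AT1G12460 was the 1 member that was also 2-fold apart in the authors' deposited table, at a log2 ratio of -1.11 and an FDR of 0.0084.

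The listed receptors of the vascular tissue were each lower in the ARF18-OE library. The list was drawn up with earlier results of these data known, and a shared shift of the class was not tested. All 5 listed members were expressed and had a count interval below 1, and their median log2 ratio was -0.65, or -0.47 adjusted. Such an interval was found in 64.8% of the expressed members, 40.5% of loci in their length range and 15.6% of expressed nuclear loci. PXC1, on the plus strand of chromosome 2 (TAIR10.1 chr2:15335284-15337995), had 1211 counts in ARF18-OE and 2336 in Col, a ratio of 0.536 (0.4999 to 0.575). Its log2 ratio of -0.89, or -0.73 adjusted, was the lowest of the 71 members on both scales. PXY (AT5G61480, minus strand, chr5:24724337-24728244) had 771 counts in ARF18-OE and 1371 in Col, a ratio of 0.582 (0.532 to 0.636). Its log2 ratio was -0.77, or -0.47 adjusted. Both genes have 2 annotated exons. Their count intervals overlap.

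RUL1 (AT5G05160, plus strand, chr5:1527768-1530205) had 747 counts in ARF18-OE and 1222 in Col, a ratio of 0.632 (0.577 to 0.693) and an adjusted log2 ratio of -0.57. Its annotated end overlaps CEV1, a cellulose synthase gene on the other strand, by 74 bases. CEV1 had 5365 counts in ARF18-OE and 8783 in Col, a log2 ratio of -0.66 beside -0.65 for RUL1. Strand use in counting is not given in the sources used here, so reads of the shared bases cannot be told apart. PXL2 (AT4G28650), a close relative of PXY, had 67 counts in ARF18-OE and 114 in Col, a ratio of 0.608 (0.443 to 0.829). PXC3 (AT2G41820), named for its coexpression with PXY, had 381 counts in ARF18-OE and 576 in Col, a ratio of 0.684 (0.600 to 0.780). Adjusted for length and GC content, the log2 ratios of PXL2 and PXC3 were -0.21 and -0.23. Both lay between the quartiles of all expressed members, -0.27 and 0.05, so the low class median rests on PXC1, RUL1 and PXY. Of the 5 adjusted intervals 4 stayed below 1, all but that of PXL2, against 31.0% of the expressed members and 16.5% of the length range.

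Immune receptors and their regulators had medians nearer to no difference than the vascular receptors, and the contrast between the 2 classes was not tested. Of 6 listed members 5 were expressed, with a median log2 ratio of -0.33, or -0.14 adjusted, and 3 intervals below 1. Those 3 of 5 were near the 64.8% of all expressed members, whose median log2 ratio was also close, at -0.37, or -0.14 adjusted. BIR1 (AT5G48380) had 519 counts in ARF18-OE and 772 in Col, a ratio of 0.695 (0.621 to 0.778). PEPR1 (AT1G73080), a receptor of the Pep danger peptides, had 270 counts in ARF18-OE and 399 in Col, a ratio of 0.700 (0.598 to 0.819). SOBIR1 (AT2G31880), a partner kinase of receptor-like proteins, had 243 counts in ARF18-OE and 319 in Col, a ratio of 0.788 (0.664 to 0.934). It overlaps RAP on the other strand by 478 bases. Adjusted for length and GC content, 1 of the 5 intervals was below 1, that of BIR1, at a log2 ratio of -0.26.

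The flagellin receptor FLS2 (AT5G46330) had 28 counts in ARF18-OE and 36 in Col, a ratio of 0.805 (0.473 to 1.36), so that no difference was detectable at this depth. It shares 172 bases with RWA1, on the other strand. BIR2 (AT3G28450), which binds the co-receptor BAK1, had 186 counts in ARF18-OE and 194 in Col, a ratio of 0.992 (0.807 to 1.22). EFR, the receptor of bacterial EF-Tu, was under the level filter with 15 counts in ARF18-OE and 20 in Col.

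IMK2, RPK2 and FEI2 belong to different classes and MRH1 to no listed class, and they were named for being among the 10 lowest log2 ratios. IMK2 (AT3G51740) had 347 counts in ARF18-OE and 636 in Col, a ratio of 0.564 (0.494 to 0.644) and a log2 ratio of -0.79, or -0.52 adjusted. Its relative MRLK (AT3G56100), a meristem kinase, had 84 counts in ARF18-OE and 108 in Col, a ratio of 0.805 (0.598 to 1.08). RPK2 (AT3G02130), which acts in CLE peptide signalling in the shoot meristem and in anthers, had 194 counts in ARF18-OE and 337 in Col, a ratio of 0.595 (0.496 to 0.713). MRH1 (AT4G18640), known for root hair growth, had 218 counts in ARF18-OE and 377 in Col, a ratio of 0.598 (0.504 to 0.709). FEI2 (AT2G35620), which acts in cell wall synthesis in roots, had 16 counts in ARF18-OE and 36 in Col, a ratio of 0.460 (0.238 to 0.850). Its partner FEI1 had 13 counts in each library and was under the level filter. Adjusted for length and GC content, the log2 ratios of RPK2, MRH1 and FEI2 were -0.35, -0.44 and -0.55.

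In the remaining named classes, TMK1 and HSL2 had intervals below 1 before adjustment, while those of ER and IOS1 included 1. These classes are what is left after IMK2, RPK2 and FEI2 were described above for their low ratios. An interval below 1 was found in 64.8% of the expressed members and 40.5% of loci in their length range. Adjusted for length and GC content, the intervals of TMK1, HSL2, ER and IOS1 all included 1. TMK1 (AT1G66150), which acts in auxin signalling at the plasma membrane, had 475 counts in ARF18-OE and 607 in Col, a ratio of 0.809 (0.716 to 0.914). Adjusted for length and GC content its log2 ratio was -0.0024. HSL2 (AT5G65710), a receptor of the IDA peptide in organ abscission, had 86 counts in ARF18-OE and 125 in Col, a ratio of 0.712 (0.534 to 0.944), or -0.14 on the adjusted log2 scale. ERECTA (ER, AT2G26330), which shapes stems and stomatal patterning, had 103 counts in ARF18-OE and 101 in Col, a ratio of 1.05 (0.794 to 1.40). Its adjusted log2 ratio was 0.36. IOS1 (AT1G51800), a malectin-like kinase of pattern-triggered immunity, had 59 counts in ARF18-OE and 54 in Col, a ratio of 1.13 (0.768 to 1.67). Its adjusted log2 ratio was 0.40. EMS1 and GSO2, which act in anther and embryo development, were under the level filter, with 12 and 5 counts in ARF18-OE and 17 and 8 in Col. So was RKF1, with 2 counts in ARF18-OE and 5 in Col. ERL2, a relative of ER, and MEE39 were also under it, with 4 and 0 counts in ARF18-OE and 1 and 2 in Col.

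**Figure D4:**
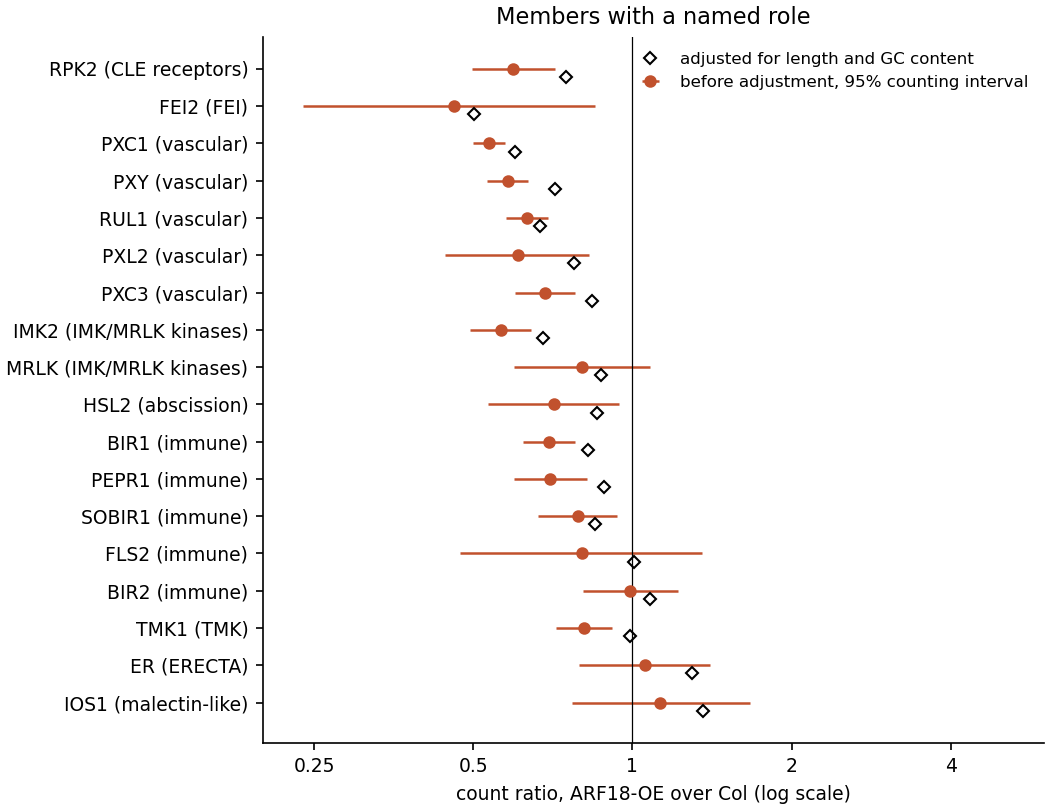
Count ratio of ARF18-OE over Col on a log scale for the 18 expressed members with a listed role, grouped by class. Orange points are ratios scaled to library totals with 95% exact counting intervals, and open diamonds are the same ratios after adjustment for length and GC content. The 5 vascular receptors lie between 0.536 and 0.684, and ER and IOS1 lie just above 1.

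Most members have no name in the reference. Of the 115, 83 carried no symbol. The 53 expressed members without a listed role had a median log2 ratio of -0.35, or -0.13 adjusted. Their intervals lay below 1 in 33 (62.3%), against 64.8% of expressed members, 40.5% of the length range and 15.6% of expressed nuclear loci. Adjusted intervals lay below 1 in 14 (26.4%), against 31.0%, 16.5% and 12.5%. AT2G01820 had 1225 counts in ARF18-OE and 1844 in Col, a ratio of 0.687 (0.639 to 0.739). AT5G24100 had 44 counts in ARF18-OE and 86 in Col, a ratio of 0.529 (0.359 to 0.770), and its adjusted log2 ratio of -0.58 followed that of PXC1. AT2G23300 had 208 counts in ARF18-OE and 356 in Col, an adjusted log2 ratio of -0.53. AT1G12460 had 25 counts in ARF18-OE and 56 in Col, a ratio of 0.462 (0.276 to 0.752). AT1G04210 had 180 counts in ARF18-OE and 313 in Col, and its log2 ratio was -0.67, or -0.25 adjusted. AT1G04210 overlaps KCS2 on the other strand by 41 bases.

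Most members at the higher end of the family held few reads, with AT5G14210 as an exception. AT5G07150 had 23 counts in ARF18-OE and 16 in Col, a ratio of 1.49 (0.752 to 3.01) and the highest log2 ratio of the expressed members, 0.36. It lies over the member AT5G07152 on the other strand for 2545 bases, so reads of this pair are uncertain. AT2G28960 had 27 counts in ARF18-OE and 20 in Col, a ratio of 1.40 (0.755 to 2.63). AT5G45780 had 44 counts in ARF18-OE and 37 in Col, and AT2G15300 had 39 in ARF18-OE and 34 in Col. AT5G63410 and AT1G51860 had 37 counts each in ARF18-OE, against 32 and 34 in Col, and AT3G47570 had 104 in ARF18-OE and 101 in Col. All 7 intervals included 1. AT5G14210 had 212 counts in ARF18-OE and 204 in Col, a ratio of 1.08 (0.883 to 1.31), and was the member with an adjusted interval above 1. It shares 228 bases with HEMG2 on the same strand, a locus with 1 count in ARF18-OE and 4 in Col. Below the level filter, AT1G66830, picked with its values known, had 18 counts in ARF18-OE and 7 in Col, with an interval of 1.06 to 7.53. It shares a stretch of 730 bases with AT1G66820.

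Ratios were compared across features that the choice of members did not use. Members with an arginine-aspartate catalytic loop had a median log2 ratio of -0.35 over 35 expressed loci, or -0.14 adjusted. Members without the aspartate had -0.47 over 14 loci, or -0.14 adjusted, and those with another residue before the aspartate had -0.41 over 6 loci, or -0.07 adjusted. The 16 without a match had -0.32, or -0.14 adjusted. Of the members without the aspartate 14 of 16 were expressed, against 35 of 65 with arginine and aspartate. The adjusted medians of the loop classes thus lay close together, while the lowest single value, that of PXC1, was in the class without the aspartate.

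Position in the genome went along with level. Of the 115 members 34 lay within 20 kb of another member, in 11 clusters, and 12 of these 34 were expressed. The largest cluster held 7 members from AT1G51790 to AT1G51860 (chr1:19206615-19261794), among them IOS1. Its 5 expressed members had log2 ratios from -0.38 to 0.13, with a median of -0.17. The 12 clustered expressed members had a median log2 ratio of -0.05, or 0.16 adjusted, at a median of 83 counts over both libraries. The 59 expressed members that lay alone had -0.41, or -0.14 adjusted, at a median of 397 counts. Depth thus differed between the clustered and the lone members, and its part in the ratios was not tested. Near-identical stretches of at least 100 bases in another annotated transcript, overlapping genes included, were found for 15 members, 9 of them expressed, so reads of these members may be shared. A further limit is overlap, since 25 members, 16 of them expressed, share annotated bases with another counted locus.

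Genes for peptides that such receptors bind had a median log2 ratio above 0 before adjustment and near 0 after it. Of 32 listed ligand precursor genes 25 were in the table and 18 were expressed, with a median log2 ratio of 0.28, or -0.0042 adjusted, and a median transcript length of 534.5 bases. The count interval was above 1 in 5 and below 1 in 0, against 18.7% and 15.6% of expressed nuclear loci. Those shares are over loci of all lengths. The shortest decile, of 676 bases or less, had a median log2 ratio of 0.34, and its intervals were not counted. PSK2, a precursor of phytosulfokine, had 25 counts in ARF18-OE and 8 in Col, a ratio of 3.23 (1.41 to 8.29). Its log2 ratio was 1.33, or 0.99 adjusted. The listed locus AT5G66815 had 12 counts in ARF18-OE and 4 in Col, and PSK1 had 39 in ARF18-OE and 25 in Col, with intervals that included 1. CLE41 and CLE44 encode TDIF, the peptide that PXY binds, and are given for that reason. CLE41 had 495 counts in ARF18-OE and 565 in Col, a ratio of 0.906 (0.802 to 1.02), or -0.32 on the adjusted log2 scale. CLE44 had 262 counts in ARF18-OE and 218 in Col, a ratio of 1.24 (1.03 to 1.49), or 0.10 on the adjusted log2 scale. The count interval of PXY, 0.532 to 0.636, lay below those of both ligand genes, while its adjusted log2 ratio of -0.47 was nearer to that of CLE41.

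Partners inside the cell had medians near 0. Of 13 listed receptor-proximal kinases and regulators 10 were expressed, with a median log2 ratio of -0.07, or 0.04 adjusted, and 4 intervals below 1 and 0 above. Their median length was 2498.5 bases, and the 4 of 10 matched the 40.5% of loci in the members' length range. PLL1, a phosphatase of the POLTERGEIST family that acts in meristem signalling, had 103 counts in ARF18-OE and 173 in Col, a ratio of 0.616 (0.478 to 0.791). RBOHD, the NADPH oxidase of the immune oxidative burst, had 418 counts in ARF18-OE and 623 in Col, a ratio of 0.694 (0.612 to 0.787). PUB13, a ubiquitin ligase of FLS2, had 933 counts in ARF18-OE and 1236 in Col, a ratio of 0.781 (0.716 to 0.851). All 7 listed MAP kinase cascade genes were expressed, with a median log2 ratio of -0.0031, 1 interval below 1 and 1 above, which is no more than the shares of expressed nuclear loci. MKK4 had 240 counts in ARF18-OE and 181 in Col, a ratio of 1.37 (1.13 to 1.67), and its log2 ratio was 0.43 with and without adjustment. YDA had 320 counts in ARF18-OE and 403 in Col, a ratio of 0.821 (0.707 to 0.954), or 0.02 on the adjusted log2 scale. MKK5 had 488 counts in ARF18-OE and 569 in Col, with an interval that included 1.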

How the data were processed

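RNA-seq of whole seedlings was available as 1 library of the ARF18 overexpression line and 1 of wild type (Col). For each transcript model the authors deposited a raw read count and an RPKM, a level per transcript length and library total. The submitters' processing notes name TAIR 10 as the build, while the aligner, the counting program and strand use were not given in the sources used here. RPKM values were recomputed from counts, lengths and library totals and differed by at most 3.2e-06 percent. The authors wrote an RPKM of 0.01 for 0 counts, which was set to 0. The deposited log2 ratio, p-value and FDR compare reads between these 2 libraries.

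Both measures were added up within each locus, over 24295 transcript models. Of 21825 loci, 21682 were nuclear and 15083 of those had a mean RPKM of 1 or more. Symbols, domain notes, coordinates and sequences came from RefSeq TAIR10.1, which held 21649 of the loci; its coordinates are not those of the authors' files, which give none. The log2 ratio used a pseudocount of 1 RPKM. Each count ratio was scaled to the totals and given a 95% exact conditional binomial interval for counting error alone. Adjusted ratios subtract the median of 50 bins of transcript length and then of 50 bins of GC content, known for 15069 expressed loci. Lengths were those the authors deposited, while GC content, exons and near-identical stretches came from the reference transcripts. The 2 lengths were equal for 11 of the 115 members, so the reference transcript often differs from the one counted. Near-identical stretches (at least 95% identity over 100 bases) were searched with BLAST 2.17.0. TMM (trimmed mean of M values) factors came from edgeR 4.0.16 in R 4.3.3, used for scaling only. Other steps used Python 3.11.15, numpy 2.4.6, pandas 2.3.3, scipy 1.17.1, matplotlib 3.10.9 and biopython 1.88, and were tested on simulated data.

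The members and the role and pathway lists were chosen with earlier results of these data known. Named members are the 10 lowest and the 10 highest log2 ratios with at least 20 counts, the 10 most abundant, and in each role class the 2 with the highest level and the 2 with the largest ratio. In each pathway list, the 3 loci with the largest absolute ratio are named. Other members of the vascular and immune classes, CLE41, CLE44 and members under the level filter were added to complete their class or for their known pairing. Members have up to 2 models per locus, and 4 have more than 1.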

Additional observations from a re-analysis of the deposited data

How the results depend on the processing

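The direction of the members' median log2 ratio was below 0 under every setting tried. It was -0.37 as reported, -0.25 with a pseudocount of 5 RPKM, -0.17 over all 115 members without a level filter, -0.14 adjusted for length and GC content and -0.13 adjusted for length alone. Members at least 2-fold higher numbered 0 under every setting tried. Members at least 2-fold lower numbered 0 as reported, 2 with a pseudocount of 0.1 RPKM (AT1G12460 and FEI2; 249 of 15083 expressed nuclear loci), 13 at a 1.5-fold threshold (711 of 15083) and 1 by the calls in the authors' deposited table (185 of 24295 models). Intervals below 1 numbered 46 as reported and 22 under both adjustments. Intervals above 1 numbered 0 as reported and 1 without a level filter (AT1G66830), with both adjustments and with the length adjustment (AT5G14210). The log2 ratio of ARF18 was 2.15 as reported and 1.67 with a pseudocount of 5 RPKM. A named member is said to move when its log2 ratio shifts by more than the mean distance from the centre of its log2 counting interval to the ends. Among 32 named members 13 moved in this sense with both adjustments, and 0 of the 22 below 0 turned above 0. With the length adjustment alone 14 moved and 1 turned, TMK1, from -0.29 to 0.0042. Leaving out members with shared stretches, chosen after seeing the data, gave a median of -0.39 and 34 intervals below 1 of 54. No paired analysis was possible because only 1 library represents each genotype. The spread between plants is thus not known, and members with few reads carry wide intervals.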
